A study of Mus musculus with 4 samples.

Results

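The genes described here are those with at least 10 CPM (a gene's count scaled to a common library size, the usual CPM unit) in either of 2 RNA-sequencing libraries of mouse mammary cells, taken 5 weeks after tamoxifen. One library came from a conditional knockout (cKO) of ΔNp63 and the other from the wild type (WT). This rule kept 10649 of the 54393 genes of the deposited table, and they held 98.1% of the counts of the WT library and 97.9% of those of the cKO library. Of these genes 10233 were protein-coding.

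The series has 4 libraries, 1 for each genotype (WT or Dnp63 cKO, as the labels spell it) at 10 days and at 5 weeks after tamoxifen. Tamoxifen at 1.5 mg/ml was given at puberty, at 4 weeks of age, to delete ΔNp63 in mice described as iK14-Cre; DNp63 f/f, in which an inducible Cre under the keratin 14 promoter recombines floxed ΔNp63 alleles. The keratin 14 promoter is active in basal cells, so deletion was aimed at that layer and its descendants. The extraction text names only the iK14-Cre; DNp63 f/f mice for all 4 libraries, and the labels do not state whether WT animals carried the Cre, the floxed alleles or both. Glands were digested with collagenase and hyaluronidase, cells carrying CD45 (leukocytes), CD31 (endothelium) or Ter119 (red cells) were removed by sorting, and 100000 cells were used. A growth note gives ages of 5 and 35 weeks, which do not match 4 weeks plus 5 weeks, so the age at harvest is uncertain. The labels do not say how many animals stand behind a library. With 1 library on each side, no test between genotypes exists within 5 weeks, and each difference below is a difference between these libraries.

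p63 is a transcription factor of the p53 family that basal cells of stratified and glandular epithelia need. Its ΔN form, which lacks the N-terminal activation domain, is the main form in basal keratinocytes and in basal cells of the mammary gland, and its known targets include basal keratins, desmosomal and hemidesmosomal proteins and cell cycle genes. The mammary epithelium has an outer basal (myoepithelial) layer, which contracts and rests on the basement membrane, and inner luminal layers, among them hormone-sensing cells and progenitors of milk-secreting cells.

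Counts in the 4 libraries summed to between 31714181 and 79122250, and the WT library at 5 weeks was the deepest. The cKO library at 5 weeks held 34230566 counts. Levels are CPM on effective library sizes (TMM). Where 4 levels of a gene are given, they stand in the order WT then cKO of the 10-day pair, then WT then cKO of the 5-week pair. A log2 ratio is cKO over WT with a prior count of 2. At this depth the 95% counting interval of a gene's log2 ratio had a median width of 0.10 to either side, which covers counting error only and says nothing of the spread between animals. The sort did not leave epithelium alone. The 30 fibroblast markers summed to 44573 CPM in the WT library and 85234 CPM in the cKO library at 5 weeks, while 13 endothelial markers and the leukocyte gene Ptprc (CD45) were still read. In bulk libraries, fewer cells of a type and less RNA per cell cannot be told apart.

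Trp63, the gene of p63 (chromosome 16, 25683763 to 25892102, GRCm38), was read at 46.8, 12.8, 160.5 and 25.5 CPM. The cKO library was the lower one at both times, and at 5 weeks it was 6.29-fold lower (log2 ratio -2.65, counting interval -2.76 to -2.56). The gene count adds up all p63 forms, so it does not read the ΔN form alone. The WT level at 5 weeks was also the highest of the 4, and against the WT library at 10 days the log2 ratio of the 5-week cKO library was -0.88. Trp53, the gene of p53, had a log2 ratio of -0.86 at 5 weeks. Trp73, the other member, had 7.75 CPM in WT against 0.884 in the 5-week cKO library, under the 10 CPM minimum.

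Across the 10649 genes the log2 ratio at 5 weeks had a median of -0.09 and quartiles of -0.41 and 0.26, and 6050 genes (56.8%) were below 0. At least 2-fold lower in cKO were 555 genes (5.21%), and at least 2-fold higher were 368 (3.46%). The lower side had the longer tail. At 4-fold or more there were 160 lower genes (1.5%) and 25 higher genes (0.235%). Just inside the 10 CPM minimum, 38 of 245 genes between 10 and 11 CPM were past 2-fold, and just outside it 43 of 294 genes between 9 and 10 CPM were. A gene that reached 10 CPM in 1 of the 5-week libraries alone had its direction set by this minimum. Such genes numbered 569 for WT and 419 for cKO.

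**Figure D1:**
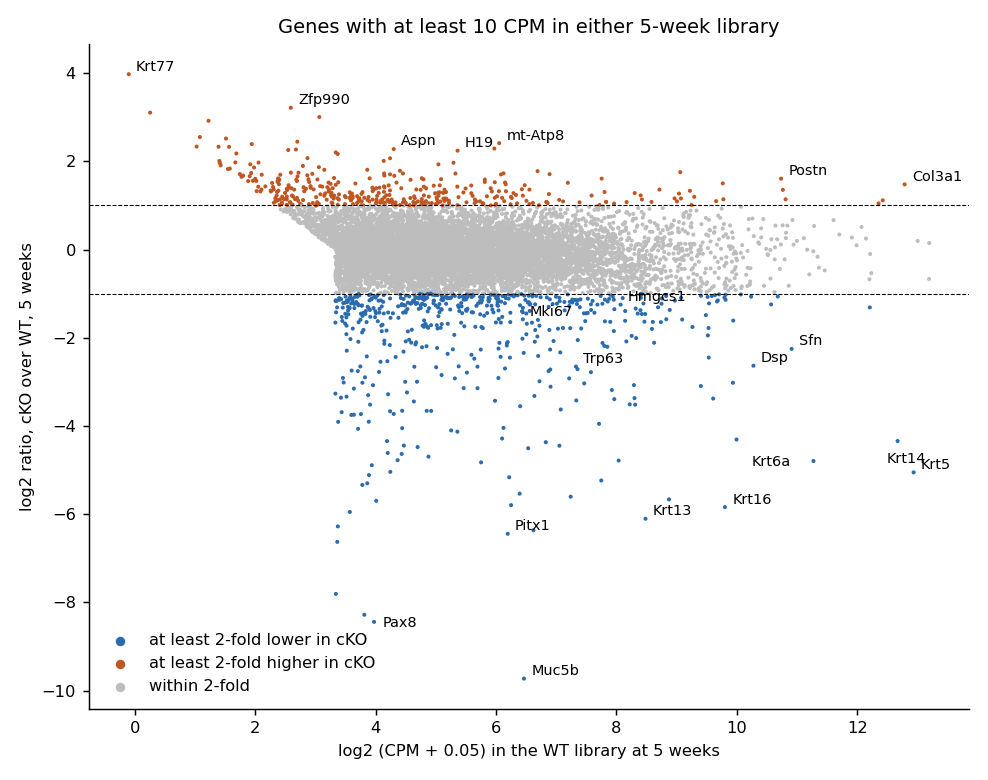
Each point is a gene with at least 10 CPM in either 5-week library, with log2 of its CPM in the WT library on the x axis and its log2 ratio, cKO over WT, on the y axis; dashed lines mark 2-fold. The lower side reached Muc5b at -9.73 while the highest gene, Krt77, lay at 3.98; Pax8 had 0 counts in cKO, so its height depends on the prior count, and the pseudogene Gm28437, also at 0 counts, lies off the axis.

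The most lowered genes had their highest sum in the WT library at 5 weeks. The 160 genes at least 4-fold lower in cKO summed to 36845 CPM in this library, against 3164 CPM in the cKO library of the same time, 9448 CPM in WT at 10 days and 4187 CPM in cKO at 10 days. These genes were chosen on the 5-week libraries, so the first value had to exceed the second. It also exceeded both 10-day values, but choosing genes that are high in the 5-week WT library favours this as well. For most lists the median is therefore given below against the WT library at 10 days too, over the same genes, a comparison that shares the cKO library and in which genotype and time change together. In that comparison 444 genes were at least 2-fold lower and 564 at least 2-fold higher, with the minimum set on that pair. Of the 555 genes lower against WT at 5 weeks, 170 (30.6%) were at least 2-fold lower against WT at 10 days, and of the 160 at 4-fold, 40 (25%) were 4-fold lower. Of the 368 higher genes, 208 (56.5%) were 2-fold higher.

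The lists of basal genes, suprabasal keratins, cornified envelope and desmosome held 27 of the 160 genes at least 4-fold lower (16.9%), and these held 67.4% of the summed CPM of the 160 in the WT library at 5 weeks. Among the 555 genes at 2-fold they were 40 (7.21%). Whether the squamous reads of this WT library came from mammary cells was not tested. Krt5, the basal type II keratin (chromosome 15, 101707070 to 101712898), was read at 1018, 123.0, 7826 and 235.8 CPM. It was 33.2-fold lower in cKO at 5 weeks, with the WT library far above the other 3. Krt14, its type I partner and the gene whose promoter drives the Cre, was read at 1637, 411.5, 6510 and 320.9 CPM, which is 20.3-fold lower at 5 weeks. Krt15, another basal type I keratin, followed at 177.6, 13.2, 1020 and 51.4 CPM. Each of these 3 keratins was lower in cKO at both times.

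Of the list of 30 basal identity genes, 29 reached 10 CPM; 11 were at least 2-fold lower, none was higher, and the median log2 ratio was -0.11 (-0.48 against WT at 10 days). The list thus split. Beside the keratins, the lower ones included Cdh3 (P-cadherin, a basal adhesion molecule) at -2.41, Jag2 (a Notch ligand) at -1.83, Ngfr (a neurotrophin receptor) at -1.79, and the integrin genes Itgb4 at -2.11 and Itga6 at -1.16. Basal genes tied to contraction were not among them. Acta2, smooth muscle actin, had 690.3 CPM in the WT library and 771.5 in the cKO library, and Myh11, smooth muscle myosin, 437.8 and 484.1. Among the 21 contractile genes at 10 CPM, none was at least 2-fold lower and 1 was higher (Itga1, at 1.08), beside 5.21% and 3.46% of all genes. The contractile median was 0.15 at 5 weeks, -0.31 against WT at 10 days and -0.38 within the 10-day pair. Pericytes and vascular muscle also express such genes, and their 14 markers had a median of 0.49 (0.80 against WT at 10 days), so the source of this RNA was not tested. Snai2, Lgr6 and Procr, associated with basal stem cells, had log2 ratios of 0.00, 0.11 and 0.48.

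Keratins of suprabasal and stressed epithelium differed by larger ratios. Krt13, a keratin of moist squamous linings, was read at 54.0, 0.661, 357.6 and 5.15 CPM, a log2 ratio of -6.10 at 5 weeks. Krt16, induced in stressed epidermis, had 892.1 CPM in WT and 15.5 CPM in cKO (log2 ratio -5.84). Krt6a and Krt6b, its type II partners, had log2 ratios of -4.80 and -5.24, and since they are near-identical neighbours on chromosome 15 the split of reads between them is uncertain. Krt10 and Krt1, the pair of the differentiated epidermis, had log2 ratios of -3.37 and -1.78. Of 17 such keratins 12 reached 10 CPM and 8 were at least 2-fold lower (median -2.45; -1.33 against WT at 10 days). One went the other way. Krt77, a keratin of eccrine sweat ducts, was read at 0.871, 1.04, 0.885 and 14.6 CPM and had the highest log2 ratio of all genes, at 3.98 (3.67 to 4.43 by counting error).

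Cornified envelope genes encode proteins cross-linked under the membrane of dying keratinocytes. Of 64 listed only 15 reached 10 CPM and 14 had no count in either 5-week library. All 15 were lower in cKO, 12 of them by 2-fold or more (median -3.52). In the 5-week cKO or the 10-day WT library only 12 of the 64 reached 10 CPM. Some of the 15 thus passed the minimum through the 5-week WT library alone and had to be lower in cKO. Sprr2a2, a small proline-rich precursor, was read at 67.1, 0.535, 468.7 and 9.19 CPM. Sprr2a3, its near copy, had a log2 ratio of -6.37, and reads may be shared between them. Tgm1, the cross-linking transglutaminase, had 283.1 CPM in WT and 107.6 CPM in cKO (-1.39), but at 10 days it had 111.8 and 149.8 CPM. The list's median depended on the WT library, since against the WT library at 10 days it was -0.66.

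Desmosomes, the spot junctions to which keratin filaments anchor, had 9 of 11 genes lower by 2-fold or more and none higher (median -2.63; -0.83 against WT at 10 days). Dsg3, the desmoglein of basal layers, was read at 25.1, 0.913, 262.6 and 9.48 CPM, a log2 ratio of -4.78. Dsp, desmoplakin, which links the plaque to keratin, was read at 387.5, 195.9, 1239 and 199.4 CPM (-2.63). Pkp1, a plaque plakophilin, and Perp, a membrane protein of desmosomes, had log2 ratios of -3.38 and -3.10. Dsg2 and Pkp2, the isoforms found in simple epithelia, were at -0.19 and 0.07.

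Hemidesmosomes and laminin-332 tie basal cells to the basement membrane. All 12 genes were lower in cKO and 9 passed 2-fold (median -1.11; -0.93 against WT at 10 days). Col17a1, a transmembrane collagen of the hemidesmosome, was read at 287.1, 92.9, 978.2 and 120.4 CPM, 8.12-fold lower at 5 weeks. Lamb3, a laminin-332 chain, was read at 220.4, 72.8, 157.5 and 71.4 CPM (-1.14 at 5 weeks). Plec and Dst, plakins that many cell types use, had log2 ratios of -0.64 and -0.43. Among connexins, Gjb2 (connexin 26) was at -4.04 and Gja1 (connexin 43) at 0.02. Of 16 tight junction genes at 10 CPM none passed 2-fold in either direction (median -0.04, and -0.42 against WT at 10 days). With 5.21% of all genes lower and 3.46% higher, few of 16 would be past 2-fold in any case. Cldn4, a claudin of tight junctions, had 661.0 CPM in WT against 545.3 in cKO.

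**Figure D2:**
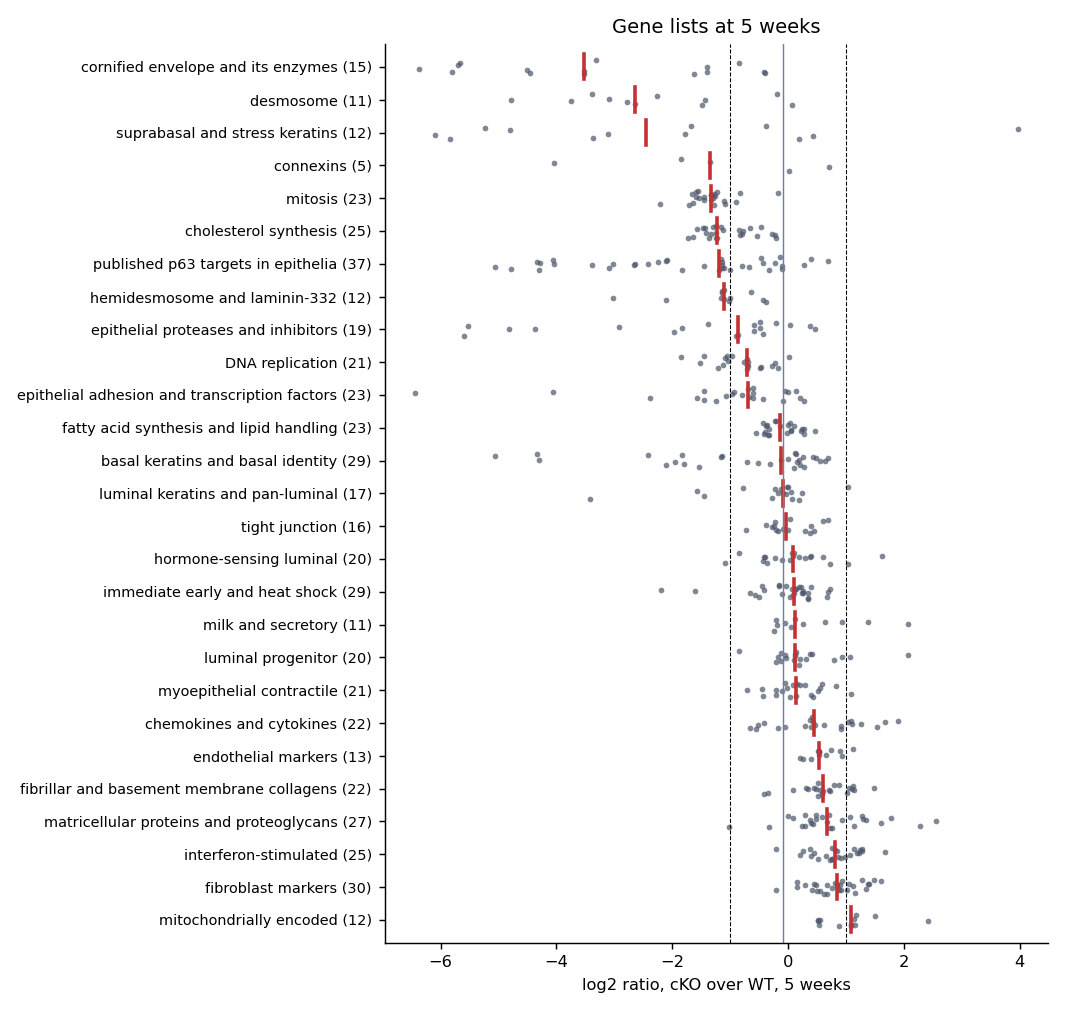
Each dot is a gene of at least 10 CPM (number in brackets) placed at its log2 ratio, cKO over WT, at 5 weeks; red bars are list medians, dashed lines mark 2-fold and the grey line is the median of all 10649 genes. Squamous and desmosomal lists spread far to the left. Mitosis genes run from -2.22 to -0.17 (median -1.33) and cholesterol genes from -1.73 to -0.21 (median -1.23). Fibroblast and mitochondrially encoded genes have medians of 0.85 and 1.08.

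A list of 40 published p63 targets of epithelia, of which 37 reached 10 CPM, had 25 genes at least 2-fold lower and none higher (median -1.19; -0.96 against WT at 10 days). Many stand in the lists above, so the count is not separate from them. Bnc1, a zinc finger factor of squamous epithelia, was at -4.29, Sfn (14-3-3 sigma) at -2.25 and Fgfr3, a growth factor receptor, at -2.09. Ikbkb, Yap1 and Runx1 were at -0.11, -0.23 and -0.13. In a stretch of 250 bases before the gene start, the core of a pair of p63 half-sites (CATG, 6 bases of any kind, CATG; the same on both strands) lay in none of 32 windows of this list and in 28 of 10513 windows (0.266%) of all genes of at least 10 CPM. Among windows of the genes at least 4-fold lower it lay in 1 of 114, that of the cytokine gene Il1f9, shown with the core in capitals because it is the only match (chr2:24186284-24186343, plus strand, GRCm38.p6).

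Il1f9: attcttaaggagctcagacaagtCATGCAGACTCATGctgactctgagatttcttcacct

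The AP-1 core TGANTCA (the same on both strands) lay in 14 of these 114 windows (12.3%), in none of the 32 windows of the p63 target list and in 4.67% of all. It lay also in 5 of 20 windows of the interferon list described below (25%), whose genes were mostly higher in cKO, and in 3 of 21 of the cholesterol list (14.3%). A match is only a run of letters in this window, and the absence of one says nothing of binding elsewhere.

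A list of epithelial adhesion genes, such as Cdh1 and Epcam (-0.60 and -0.01), and of epithelial transcription factors was lower in part. Of 23 at 10 CPM, 8 were at least 2-fold lower and none was higher (median -0.69; -0.58 against WT at 10 days). Pitx1, a homeodomain factor, was read at 6.47, 0.189, 73.2 and 0.795 CPM (-6.45). Grhl3 and Ovol1, factors of squamous differentiation, were at -4.05 and -2.39. Elf3, an epithelial ETS factor, was read at 156.9, 161.4, 454.3 and 151.8 CPM, so that only the WT library at 5 weeks was high. Klf4 and Sox9, which luminal cells share, were at 0.27 and -0.05.

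A few genes known from other glands and ducts were read far more in the WT library at 5 weeks than in the other libraries. Pax8, a transcription factor of thyroid, kidney and oviduct, had 0.319 CPM in WT at 10 days, 15.7 CPM (1205 counts) in WT at 5 weeks and 0 counts in both cKO libraries, at least 177-fold lower at 5 weeks against a floor of 3 counts in the cKO library. Muc5b, a secreted mucin, was read at 18.3, 1.83, 88.2 and 0.0589 CPM, where the last value is 2 counts; its log2 ratio was -9.73, with a counting interval from -13.59 to -8.70. Pax2, a relative of Pax8, had 911 counts in WT and 5 in cKO. Agr2, a disulfide isomerase of mucus cells, had 788 counts in WT and 2 in cKO. Cst6, a protease inhibitor, was read at 0.203, 0.409, 84.0 and 1.77 CPM. For all 5 genes the WT library at 10 days was below 20 CPM, and the WT library at 5 weeks stood above the other 3. Whether these reads came from mammary cells was not tested.

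Luminal lists lay near the middle of all genes, of which 5.21% were at least 2-fold lower and 3.46% higher. In lists this short, counts of a few genes say little beside those shares. Of 17 luminal keratin and pan-luminal genes 3 were at least 2-fold lower and 1 higher (median -0.08; -0.27 against WT at 10 days), and the 3 lower ones, Anxa8, Elf3 and Ehf, are not restricted to luminal cells. Krt8, the main type II keratin of luminal cells, was read at 3085, 3429, 2467 and 2398 CPM. Krt18, its partner, had a log2 ratio of -0.13 and Epcam, an epithelial adhesion molecule, -0.01. Among 20 hormone-sensing genes 1 was lower and 2 were higher (median 0.08; 0.93 against WT at 10 days). Within the 10-day pair the median of the same genes was 0.91. Esr1, the estrogen receptor, was read at 48.2, 90.3, 165.2 and 127.7 CPM, and Pgr, the progesterone receptor, at 63.4, 129.5, 86.4 and 105.8 CPM. For Esr1 the cKO library was the higher at 10 days and the lower at 5 weeks, both within 2-fold. Greb1, an estrogen target, had a log2 ratio of 1.32 at 10 days and -1.10 at 5 weeks. Whether these lists differ between the time points was not tested.

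Progenitor and milk genes lay mostly within 2-fold at 5 weeks, as did 91.3% of all genes. Of 20 luminal progenitor genes none was at least 2-fold lower and 2 were higher (median 0.12; -0.03 against WT at 10 days). Of 11 milk and secretory genes none was lower and 2 were higher, Glycam1 and the milk membrane mucin Muc15 at 1.39 (median 0.12; 0.76 against WT at 10 days), while within the 10-day pair 6 were 2-fold higher and 2 lower with a median of 1.15. Glycam1, a mucin-like milk protein that stands in both lists, was read at 7.23, 34.3, 18.9 and 79.2 CPM and was above 2 on the log2 scale at both times (2.24 and 2.07). Ltf, lactoferrin, was read at 46.1, 828.3, 328.9 and 631.0 CPM, 0.94 at 5 weeks and 4.17 at 10 days. Elf5, a factor of the alveolar lineage, and Kit, a progenitor receptor, were at 0.21 and -0.12. Wfdc18 and Trf, secreted proteins, were at 0.38 and -0.03 at 5 weeks and at -2.15 and -1.22 at 10 days.

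Genes of mitosis were lower as a group. Of 36 listed 23 reached 10 CPM, all 23 were lower in cKO and 20 by 2-fold or more (median -1.33, and -0.53 against WT at 10 days). Only 10 of the 36 reached 10 CPM in the 5-week cKO or the 10-day WT library. Many of the 23 thus passed the minimum through the 5-week WT library alone and had to be lower in cKO. Mki67, the proliferation antigen, was read at 43.6, 6.33, 87.2 and 29.1 CPM. Cdc20, an activator of the anaphase ubiquitin ligase, was read at 10.7, 2.20, 27.3 and 5.83 CPM, the lowest ratio of the list at -2.22. Top2a, the topoisomerase of dividing cells, was at -1.28. At 10 days all 23 were lower by 2-fold or more, with a median of -2.56. Replication genes were lower by less. There 8 of 21 passed 2-fold (median -0.72; -0.61 against WT at 10 days), with Tk1 (thymidine kinase) at -1.85, Mcm5 (a helicase subunit) at -1.51 and Pcna (the polymerase clamp) at -0.28.

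Many mitotic genes carry a cell cycle homology region (TTTGAA) close to their start, through which they are silenced outside division. This core, on either strand (TTCAAA on the other), lay within 250 bases before the start in 10 of 22 windows of the list (45.5%), from 20 genes that matched the RefSeq table, against 10.2% of the 10513 windows of all genes. Ect2 is among the 10 with the same stretch in more than 1 window. The core lay also in 4 of 14 windows of genes at least 4-fold higher (28.6%) and in 4 of 20 of the interferon list (20%). Among replication genes, which were mostly lower, it lay in 2 of 25 windows (8%). A part of this core in the lower ratios was not tested. The stretches below show it in capitals for 4 genes of the mitosis list, with their log2 ratios. They are from GRCm38.p6: Mki67 (-1.58) at chr7:135716454-135716513 on the minus strand, Cdc20 (-2.22) at chr4:118437344-118437403 on the minus strand, Prc1 (-1.33) at chr7:80294416-80294475 on the plus strand and Ube2c (-1.65) at chr2:164769869-164769928 on the plus strand.
Mki67: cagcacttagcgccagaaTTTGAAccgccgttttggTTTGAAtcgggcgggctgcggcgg
Cdc20: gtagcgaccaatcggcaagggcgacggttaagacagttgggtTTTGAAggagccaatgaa
Prc1: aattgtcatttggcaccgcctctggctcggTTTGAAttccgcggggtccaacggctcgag
Ube2c: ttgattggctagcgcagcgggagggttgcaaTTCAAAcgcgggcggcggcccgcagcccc

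Cholesterol synthesis genes were lower together at 5 weeks and not at 10 days. All 25 genes at 10 CPM were below 0, 15 of them by 2-fold or more, with a median of -1.23, while at 10 days the median was 0.02 and no gene was 2-fold lower. Hmgcs1, an early enzyme of the pathway, was read at 124.9, 228.6, 268.4 and 112.8 CPM (-1.25). Msmo1, a sterol oxidase, was read at 38.4, 60.5, 105.5 and 31.8 CPM and had the lowest ratio (-1.73). Fdps, which makes farnesyl diphosphate, was read at 35.4, 30.2, 75.4 and 24.1 CPM. In each of these 3 genes the WT library at 5 weeks was the highest and the cKO library at 5 weeks the lowest. Against WT at 10 days the list's median was -0.27. Fatty acid synthesis genes, which answer to a related factor, had none of 23 past 2-fold (median -0.14). Of all genes 5.21% were lower and 3.46% higher by 2-fold. The difference between the time points was not tested.

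A sterol response element core (TCAC, any base, CCAC, on either strand), chosen after the values were seen, lay in 1 of 21 windows of this list (4.76%; 0.999% of all windows), that of Hmgcs1. It is shown because Hmgcs1 is a textbook sterol-regulated gene (chr13:119690188-119690247, plus strand, GRCm38.p6, core in capitals).

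Hmgcs1: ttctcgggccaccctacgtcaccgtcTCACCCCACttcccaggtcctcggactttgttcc

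**Figure D3:**
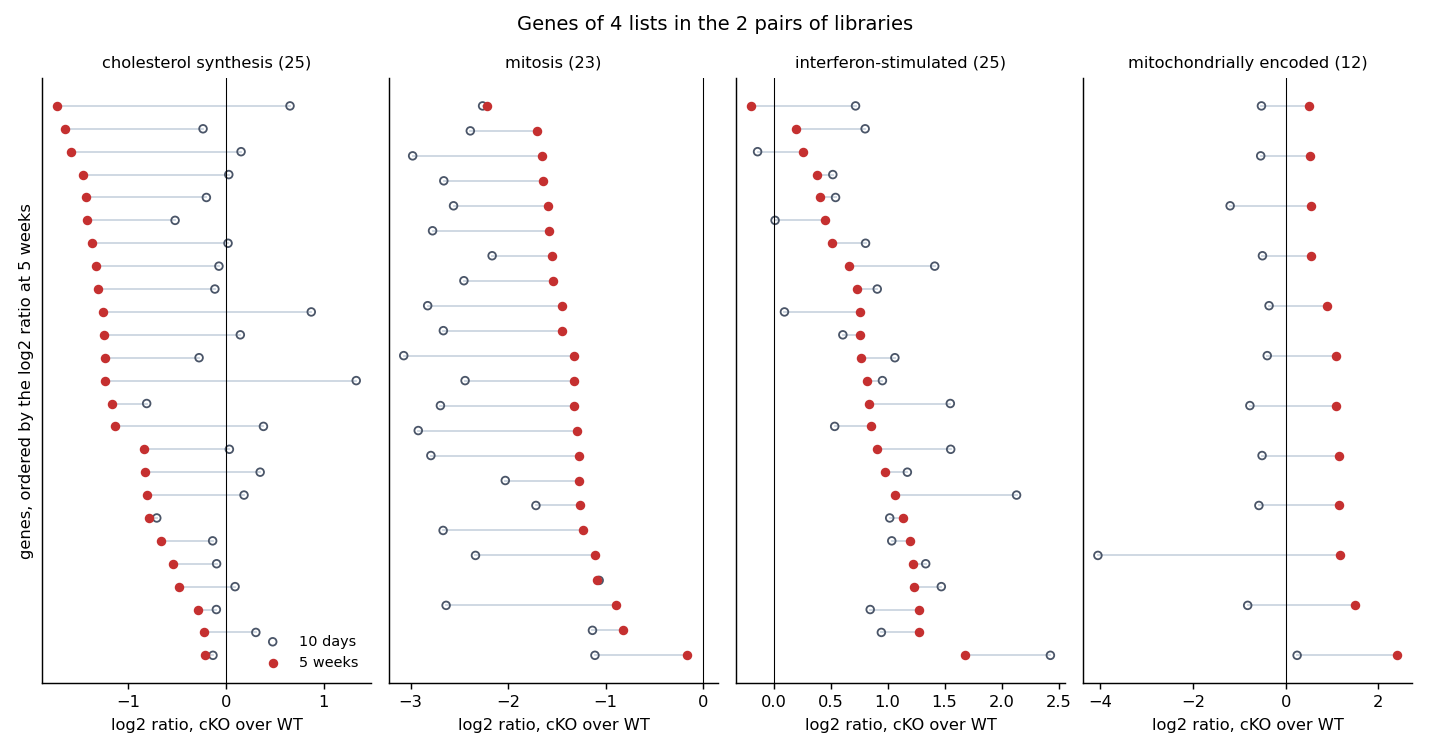
Log2 ratios, cKO over WT, of the genes of 4 lists at 10 days (open circles) and 5 weeks (red), 1 gene a line, ordered by the ratio at 5 weeks, with the number of genes in brackets. Cholesterol genes straddle 0 at 10 days and lie below it at 5 weeks, mitosis genes lie below 0 at both times, interferon genes lie mostly above 0 at both, and mitochondrially encoded genes lie above 0 at 5 weeks, with mt-Atp8 the only 1 above it at 10 days.

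Of the genes higher in cKO, those induced by interferon formed a group present at both times. Among 39 listed 25 reached 10 CPM, 24 of them were higher in cKO and 8 by 2-fold or more (median 0.82; 0.94 at 10 days; 0.44 against WT at 10 days). Of all genes 43.2% were above 0, 3.46% were at least 2-fold higher and 5.21% lower. Ifit1, which binds foreign RNA, was read at 6.13, 33.1, 7.25 and 23.4 CPM, so both cKO libraries were above both WT libraries. Gbp3, a guanylate-binding protein, was read at 14.0, 27.0, 9.60 and 23.4 CPM, in the same order. The share of all genes with both cKO libraries above both WT libraries was not counted. Iigp1, an immunity GTPase, was read at 101.2, 182.1, 48.1 and 116.6 CPM. Stat2, a signal carrier of the pathway, was at 0.20. Chemokines had 7 of 22 genes higher by 2-fold or more and none lower (median 0.45; 1.09 against WT at 10 days), led by Cxcl9 (1.89), Cxcl10 (1.67) and Il6 (1.53), all 3 higher at 10 days as well (1.30, 1.67 and 1.32).

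The core of the interferon-stimulated response element, GAAA, 2 bases of any kind and GAAA again, or its reverse complement, lay within 250 bases before the start in 9 of 20 windows of the interferon list (45%), from 17 matched genes, and in 2.53% of the 10513 windows of all genes. The list was made of genes known to answer to interferon, so this share does not bear on the cKO values. The core lay also in 2 of 22 windows of the mitosis list (9.09%). It lay in none of 25 windows of the replication list and none of 14 of genes at least 4-fold higher. A part of this core in the higher ratios was not tested. The core is shown in capitals, with overlapping copies run together, for 4 genes of the interferon list. They are Ifit1 (1.68) at chr19:34640769-34640828 on the plus strand, Ifit3 (1.06) at chr19:34583365-34583424 on the plus strand, Gbp3 (1.28) at chr3:142559977-142560036 on the plus strand and Irgm1 (0.91) at chr11:48871421-48871480 on the minus strand, all on GRCm38.p6.
Ifit1: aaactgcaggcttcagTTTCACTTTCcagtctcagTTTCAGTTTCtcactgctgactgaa
Ifit3: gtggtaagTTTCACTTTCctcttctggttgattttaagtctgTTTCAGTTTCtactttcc
Gbp3: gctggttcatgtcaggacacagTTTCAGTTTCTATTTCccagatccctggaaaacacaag
Irgm1: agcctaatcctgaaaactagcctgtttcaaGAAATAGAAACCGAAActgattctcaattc

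In the antigen presentation list (median 0.12; 0.25 against WT at 10 days) all 4 genes past 2-fold of 19 were those of class II, which professional presenting cells carry: H2-Aa (20.3 CPM in WT, 58.2 CPM in cKO), H2-Ab1 (17.7 and 47.0), H2-Eb1 (16.7 and 44.2) and Cd74, the invariant chain (61.0 and 152.0). Of class I, H2-K1 was at -0.18 and H2-D1 at -0.10, and B2m, the light chain, had 411.0 CPM in WT against 602.1 in cKO (0.55). Many leukocyte markers were higher with them. Ptprc was read at 9.32, 18.9, 7.26 and 30.7 CPM, and the macrophage genes Lyz2, Mpeg1 and Csf1r had log2 ratios of 1.87, 1.65 and 1.36. Of 22 myeloid markers 6 reached 10 CPM and 4 were higher by 2-fold or more. None of 22 T and NK cell markers reached 10 CPM, and their sum was 27.2 CPM in the WT library and 60.9 in the cKO library. Of 20 B and plasma cell markers 6 reached 10 CPM, 4 of them at least 2-fold higher and 1 lower. Their log2 ratios ran from -1.59 to 1.68, the last that of the B cell gene Cd79a. The 20 markers summed to 607.6 CPM in the WT library and 338.6 in the cKO library. The part of these residual cells in the interferon, chemokine and class II values was not tested.

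Fibroblast genes were higher in cKO at 5 weeks. All but 1 of 30 markers were higher in cKO, 10 of them by 2-fold or more (median 0.85; 0.67 against WT at 10 days; 0.11 at 10 days). Col3a1, a fibrillar collagen, was read at 13514, 7365, 7054 and 19638 CPM, 2.78-fold higher at 5 weeks and lower in cKO at 10 days (log2 ratio -0.88). Col1a1, the chain of type I collagen, was read at 9018, 5205, 5486 and 11889 CPM. Postn, periostin, a matrix protein of remodelling stroma, was read at 5669, 1569, 1702 and 5184 CPM. Both collagens were thus highest in cKO at 5 weeks, whereas Postn was at a like level in WT at 10 days. Dcn, decorin, had a log2 ratio of 0.67 at 5 weeks. The group was not uniform: Gsn (gelsolin) was at 0.15 and Fbln1 (fibulin 1) at -0.21. For collagens as a list, 6 of 22 were at least 2-fold higher and none lower, with a median of 0.60 at 5 weeks, 0.30 against WT at 10 days and -0.70 within the 10-day pair. The contrast between the time points was not tested.

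Other matrix genes followed. Among 27 matricellular proteins and proteoglycans 9 were higher by 2-fold or more and 1 lower (median 0.67; 0.69 against WT at 10 days), with the small leucine-rich proteoglycans Omd (2.55), Aspn (2.28) and Ogn (1.78) first. Aspn was read at 16.9, 19, 19.7 and 95.6 CPM, so only the cKO library at 5 weeks was high. Nid1, nidogen, a linker of basement membranes, was at 1.33, and Lama2, a laminin of stroma and muscle, at 0.86. Adam12, a metalloprotease of activated stroma, was read at 49.1, 46.1, 39.2 and 153.5 CPM (1.97). Zeb2, Prrx1 and Twist1, factors of mesenchymal cells, were at 1.21, 1.32 and 1.06, and Vim (vimentin) at 0.69. Endothelial markers were above 0 in 13 of 13 genes but only Tek passed 2-fold (median 0.54; 0.92 against WT at 10 days). Fibroblast growth factor ligands of stroma, Fgf10 and Fgf2, were at 1.70 and 1.09. Summed fibroblast markers were higher in the same library, and their part in these values was not tested.

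**Figure D4:**
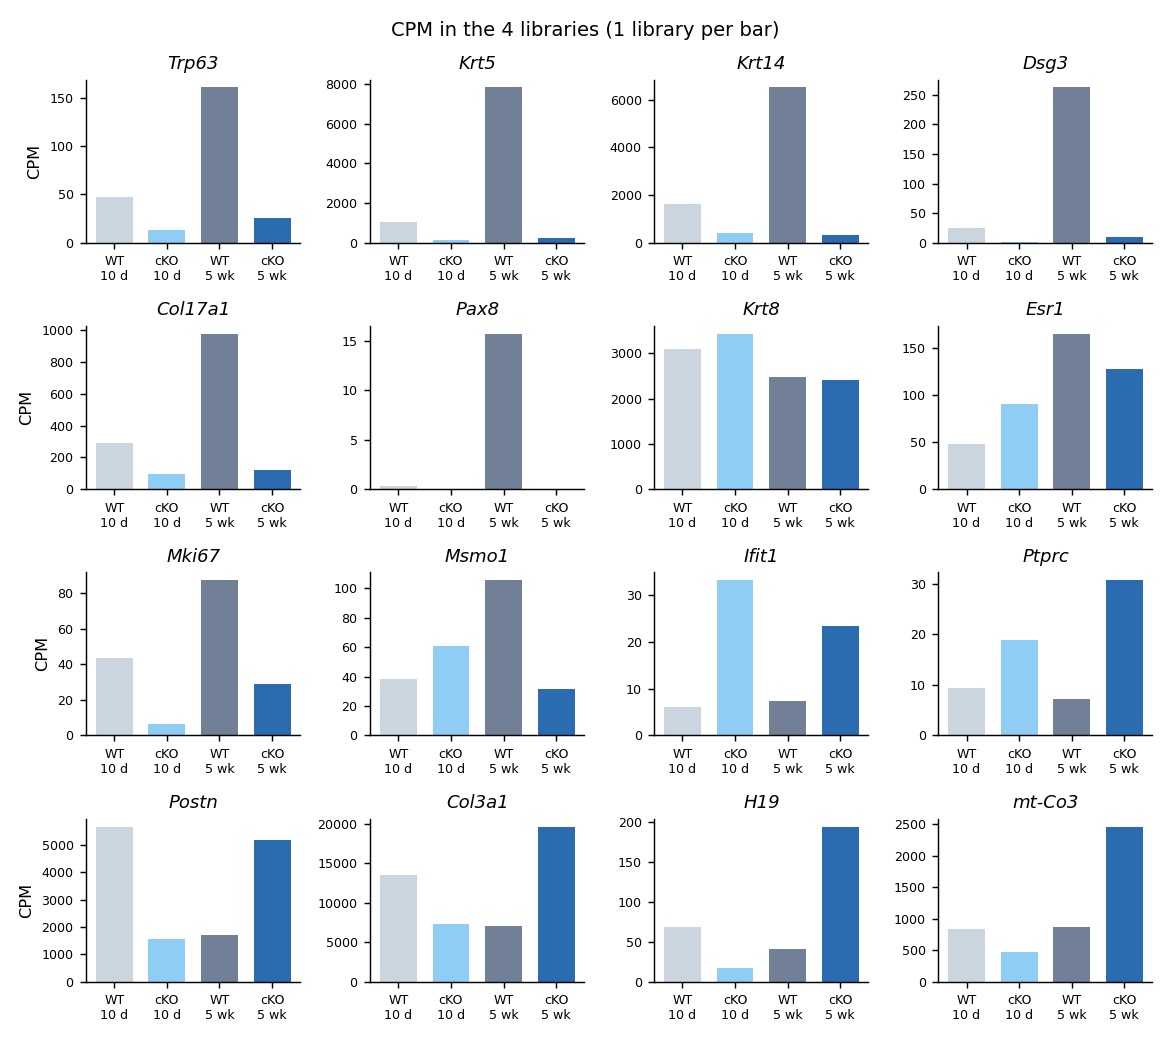
Bars are CPM of 16 genes in the 4 libraries, 1 library a bar, each panel on its own linear axis from 0. Basal genes stand high in the WT library at 5 weeks, Krt8 is close in all 4, Ifit1 is high in both cKO libraries, and Col3a1, H19 and mt-Co3 are highest in the cKO library at 5 weeks.

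Genes encoded by the mitochondrial genome were higher in the cKO library at 5 weeks. All 12 at 10 CPM were above 0 and 7 passed 2-fold (median 1.08; -0.53 at 10 days; 0.90 against WT at 10 days). The 13 protein genes summed to 11742, 7844, 11759 and 20110 CPM. mt-Co3, a cytochrome oxidase subunit, was read at 833.4, 471.9, 870.1 and 2460 CPM. mt-Co1, its largest subunit, was at 0.51 and mt-Atp8, of the ATP synthase, at 2.41, so the genes differed among themselves although they come from shared transcripts. Nuclear pseudogenes on chromosome 1 that copy mitochondrial genes took reads unevenly. Gm28437 had 28809 counts in WT and 0 in cKO at 5 weeks, whereas Gm10925 had 41002 and 61080. Which pseudogene took reads of which gene was not tested, so the ratio of a single gene such as mt-Co3 is uncertain. Summed with 5 such pseudogenes, the mitochondrial genes still came to 12768 CPM in WT and 22339 CPM in cKO, 1.75-fold higher. Immediate early and heat shock genes, which dissociation induces, had a median of 0.10 at 5 weeks, with Fos at 0.25 and Fosl1, an AP-1 subunit, at -2.19.

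Signalling lists were short, so a small number of genes past 2-fold could exceed the shares of all genes (5.21% lower and 3.46% higher). Hbegf, an EGF receptor ligand, was read at 169.7, 90.1, 321.0 and 79.8 CPM (-2.01), and it was the only gene of 8 in its list past 2-fold. Wnt10a, a ligand of skin appendages, at -2.32, was the only 1 of 23 Wnt genes past 2-fold, a share no higher than that of all genes (5.21% lower). Of 12 Notch genes 2 were lower and none higher, the ligands Jag2 and Dll1 at -1.83 and -1.18, while the Notch target Hes1 was at 0.00. The lists of FGF (12 genes), IGF (12) and TGF-beta and BMP (21) each held 2 higher genes, beside 2, 1 and 1 lower ones. The list of p53 targets and growth arrest genes had 1 gene lower and 1 higher of 19 (median 0.02). In it Cdkn1a, the growth arrest gene p21, was at -0.69 and Mdm2 at 0.04. Igf1, a growth factor of stroma, was read at 50.8, 59.5, 41.0 and 110.1 CPM (1.43).

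Set beside the 10-day pair, which shares no library with the 5-week pair, most lowered genes were lower there too. Of the 555 genes at least 2-fold lower at 5 weeks, 442 (79.6%) were below 0 at 10 days, against 52.1% of all 10649 genes, and 175 (31.5%) were at least 2-fold lower. Of the 368 higher genes, 265 (72.0%) were above 0 at 10 days, against 47.9% of all. At 10 days itself 416 of 10486 genes (3.97%) were at least 2-fold lower and 494 (4.71%) higher. Some genes past 2-fold at 5 weeks were near 0 at 10 days, among them Krt77 and Aspn (0.24 and 0.17). Others were shared by both pairs, such as Mum1l1, an X-linked gene read at 9.52, 85.7, 8.33 and 67.1 CPM, high in both cKO libraries. Zfp990, a zinc finger gene, was read at 4.21, 13.2, 5.99 and 55.9 CPM.

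**Figure D5:**
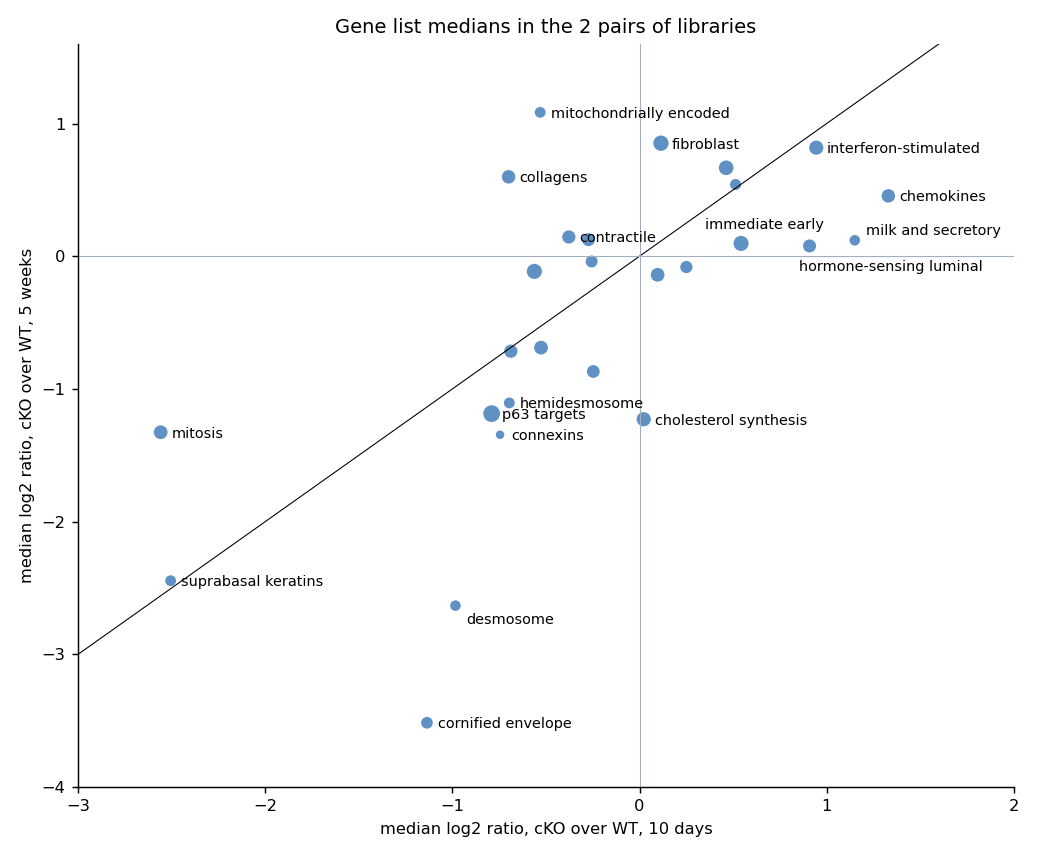
Median log2 ratio, cKO over WT, of gene lists at 10 days (x axis) and 5 weeks (y axis), over genes of at least 10 CPM at 5 weeks; larger points hold more genes and the diagonal marks equal values. Mitosis lies above the diagonal (-2.56 and -1.33), cornified envelope, desmosome and cholesterol genes lie below it, and mitochondrially encoded genes and collagens lie on opposite sides of 0 at the 2 times.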

How the data were processed

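Messenger RNA of 4 libraries was measured, 2 of which make up the comparison. The authors deposited whole-number estimated counts for 54393 genes with 0 columns of other samples, so no rounding was needed. Salmon and GRCm38 are named per the submitters' processing notes, with no version of the tool; no annotation or strand setting is given in the sources used here. Every identifier had a match in GENCODE M21. Reads of near-identical genes are divided by a model.

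Effective library sizes were set by TMM over all 4 libraries in edgeR 4.0.16 (R 4.3.3) on 18917 genes passing filterByExpr. Log2 ratios used a prior count of 2. With 1 library a side no test was made and genes were counted past 2-fold. Counting intervals are exact conditional binomial (95%). The script was tested on simulated data. Alternatives were other scaling (DESeq2 1.42.0 among them), prior counts, minimum CPM, thinning, protein-coding genes and a 4-fold limit.

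Members and gene lists were chosen with earlier results of these data known. Named were the p63 family, the 20 lowest and 20 highest protein-coding genes, the 8 largest CPM changes each way, the 4 highest and 4 most different genes of each list, and the 8 genes whose ratio lay furthest from that at 10 days each way; names beginning Gm or ending Rik were left out of the extremes. A few genes that the rule names are not reported here. Other list members, pseudogenes, Bnc1 and Il1f9 named outside this rule were picked after their values were seen. Promoter windows (300 bases, of which the 250 before the start were searched) are from RefSeq on GRCm38.p6.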

Additional observations from a re-analysis of the deposited data

Results flagged for a closer look

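Among 10148 genes with at least 10 CPM at both times, 20 were at least 2-fold higher in cKO at 5 weeks and at least 2-fold lower at 10 days, and 15 the other way round. Each value rests on 1 library a side, and the difference between the time points was not tested. Given here are 16 genes named by the rule with such opposite ratios, the log2 ratio at 5 weeks first and at 10 days second. Of these 12 had 10 CPM at both times, while Gvin1, Hbb-bs and mt-Nd3 were under it at 10 days and Hbb-bt at both times. Higher at 5 weeks were several genes of matrix and stroma: Sparc (osteonectin; 1.14, -1.02), Postn (1.61, -1.85), Fbn2 (fibrillin 2; 1.39, -2.16), Frem1 (a basement membrane protein; 1.72, -1.85), Reln (reelin; 1.21, -2.81) and Lrrc15 (a membrane protein of activated fibroblasts; 1.68, -2.52). H19, an imprinted noncoding RNA, was at 2.24 and -1.98, and Gvin1, an interferon-inducible GTPase of a family with near copies, at 2.26 and -6.29. Gvin1 had 0 counts in cKO at 10 days, so its second ratio depends on the prior count. mt-Nd3, a subunit of complex I, was at 1.17 and -4.05, and Muc15, a milk membrane mucin, at 1.39 and -1.28. Reads of mt-Nd3 may be split with nuclear pseudogenes that copy mitochondrial genes, so its ratios are uncertain. The hemoglobin genes Hba-a2 (1.10, -1.03), Hbb-bs (1.81, -1.01) and Hbb-bt (1.81, -1.25) mark red cells, which the Ter119 sort should remove.

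Lower at 5 weeks and higher at 10 days were Ifi202b, an interferon-inducible DNA sensor (-3.43, 1.02), Fam177a (-3.36, 2.39) and Greb1 (-1.10, 1.32). Ifi202b was read at 34.8, 70.9, 63.3 and 5.83 CPM in WT and cKO of the 10-day pair and WT and cKO of the 5-week pair, so 1 library was low.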

How the results depend on the processing

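The counts past 2-fold stayed within 1.5 times the reported ones under other scaling, prior counts of 0.5 and 10, thinning of the WT library, minimums of 5 and 20 CPM and protein-coding genes alone. A minimum of 1 CPM gave 1022 lower and 1122 higher genes, and a 4-fold limit gave 160 and 25. No scaling shifted the median of all genes by over 0.08 (log2). Upper-quartile factors gave 472 lower and 446 higher genes. They moved 28 of 50 list medians and 166 of the named genes beyond counting error. Total counts with no TMM moved 5 list medians and 77 named genes, and a minimum of 20 CPM moved 17 list medians. With the WT library at 10 days in place of that at 5 weeks, chosen after seeing the data, 564 genes were higher and the Trp63 ratio was -0.88. That change moved 42 of 50 list medians and 294 of the named genes beyond counting error, left 8 and 27 within it, and turned the sign for Cdkn1c (-0.052), Cst6 (2.87), Fbn2 (-0.99), Frem1 (-0.20), Gabrp (0.10), Greb1 (0.10), Hspb1 (0.14), Id1 (0.20), Igfbp2 (0.090), Lrrc15 (-0.57), Muc15 (-0.30), Postn (-0.13), Reln (-1.21) and Tph1 (-1.03). At 20 CPM the B and plasma cell median was -0.30 because 2 genes were left. No paired analysis was possible because each group has 1 library and replicate numbers only name it. Depth limits genes under 10 CPM, and with 1 library a side the spread between animals is unknown.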

Other observations

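Imprinted genes, expressed from 1 parental copy, were listed after their values were seen. Of 29 listed 20 reached 10 CPM, all 20 were above 0 at 5 weeks and 10 were at least 2-fold higher in cKO, with a median log2 ratio of 1.0 at 5 weeks and 0.48 at 10 days. Of all genes 43.2% were above 0 and 3.46% at least 2-fold higher at 5 weeks. H19 was read at 68.9, 17.4, 41.1 and 194.5 CPM in WT and cKO of the 10-day pair and WT and cKO of the 5-week pair. Meg3, a maternally expressed noncoding RNA, was read at 231.5, 254.3, 146.2 and 417.2 CPM, and Rian, its neighbour, at 79.6, 88.7, 32.9 and 125.7 CPM. Plagl1, a zinc finger factor, was at 1.79 and Peg3 and Zim1, neighbours on chromosome 7, at 1.52 and 2.17. Gnas and Igf2r were near 0, at 0.03 and 0.22. Fibroblast markers were higher in the same library (85234 against 44573 CPM), and their part in these values was not tested.

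Cytoplasmic ribosomal protein genes, also listed after their values were seen, lay the other way. Of 82 at 10 CPM, 79 were below 0 at 5 weeks and 6 at least 2-fold lower, against 56.8% and 5.21% of all 10649 genes, with a median of -0.79 at 5 weeks and -0.35 at 10 days. They summed to 31423, 24541, 43173 and 24610 CPM in the same order of libraries, so the WT library at 5 weeks was the high one. Eef1a1 and Eef2, the elongation factors of translation, were at -0.67 and -0.68.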
